A study of Mus musculus with 9 samples.

Results

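The genes described here are the chemokines and chemokine receptors of mouse oviduct. A gene entered when its symbol begins with Ccl, Cxcl or Cx3c and a number or is Xcl1, Xcr1, or Ccr or Cxcr with a number, and when a probe set of the array carried that symbol and no other. Where more than 1 probe set qualified, the brightest on average represented the gene. This gave 51 genes, 34 ligands and 17 receptors, among the 19937 genes that the array measured in the same way. The study profiled whole oviduct, the tube between ovary and uterus, of CD1 female mice that received no hormonal stimulation. Its 3 groups of 3 arrays were sexually immature females of day 21, which the labels call Control, mature females in estrus, the phase of mating and ovulation, and mature females in diestrus, the phase of the cycle governed by progesterone. Each array carried total RNA from the pooled oviducts of 5 animals, so the p-values measure the spread between pools and not between single animals. No transgene, deletion or agent entered any group, and the labels give no age for the mature females.

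Chemokines are small secreted proteins that bind to glycosaminoglycans on cell surfaces and matrix and draw leukocytes along the gradient they form. They act through receptors that couple to inhibitory G proteins, and most inflammatory ligands share receptors, whereas several homeostatic ligands have a receptor of their own. Mucosal tissues such as the reproductive tract make epithelial chemokines that place plasma cells, T cells and macrophages, and inflammatory ones that call in monocytes, neutrophils and eosinophils.

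Values are log2 intensities after robust multi-array averaging (RMA), the deposited scale, on which a difference of 1 is a doubling. Intensities of different probe sets cannot be set against each other, so a level is described only as above or below the median of its own array, which lay between 8.85 and 8.90 on the 9 arrays. Over all probe sets, correlations between arrays were 0.992 to 0.996 inside a group and 0.990 to 0.995 between groups. Epithelial markers (Pax8, Foxj1, Epcam, Krt8 and Krt18) averaged between 11.86 and 12.15 on each array, and none of the 5 lay below the array median on all arrays. The arrays differed in markers of neighbouring tissue. A list of 6 ovarian genes averaged 9.15 on immature 2 and 9.83 on diestrus 2 against 7.95 to 8.54 on the other 7 arrays. A list of 6 smooth muscle genes averaged 12.50 on diestrus 3 against 11.62 to 11.92 elsewhere. Where leaving out these 3 arrays ended a call, the value without them is given.

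Most chemokine genes had low intensities. Of the 51 genes, 35 lay below the array median on all 9 arrays and 14 above it on all 9. On every array 9 genes, Ccr1, Ccr8, Ccr9, Cxcl2, Cxcl3, Cxcl5, Cxcr2, Cxcr5 and Cxcr6, lay even below the lower quartile. The deposited values carry no detection call, so RNA was not shown to be above background for any of the 51 genes, these 9 included. The 14 genes above the array median throughout were the ligands Ccl5, Ccl6, Ccl11, Ccl19, Ccl25, Ccl28, Cx3cl1, Cxcl12, Cxcl14, Cxcl16 and Cxcl17 and the receptors Ccr7, Cx3cr1 and Cxcr4.

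Diestrus against immature oviduct, the comparison of a mature progesterone phase with the tissue before puberty, gave the only pairwise calls. Ccl3, Ccl8 and Cxcl15 rose and no chemokine or receptor gene fell, in limma with Benjamini-Hochberg adjustment over all 28214 probe sets and an adjusted p under 0.05. These 3 are 5.88% of the 51 genes, against 1.000% of all probe sets called in either direction, 0.294% called higher and 0.705% called lower. In estrus against immature oviduct and in diestrus against estrus 0 of the 51 genes were called by limma, where 0.0851% and 0.159% of all probe sets were. At an unadjusted p under 0.05, the counts were 5 of 51 in the former (6.52% of all probe sets), 8 of 51 in diestrus against immature (13.4%) and 3 of 51 in diestrus against estrus (9.33%). The mean of both mature stages against immature oviduct gave 1 call, Ccl8, which is 1.96% of the genes against 0.432% of all probe sets. All comparisons with immature oviduct share the same 3 immature arrays.

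Ccl8, monocyte chemoattractant protein 2, is a ligand made by macrophages among others that in the mouse signals through Ccr8. Its log2 intensity was 8.14, 7.89 and 7.80 on the immature arrays, 8.32, 8.38 and 8.53 in estrus and 8.51, 8.57 and 8.74 in diestrus. Every immature array lay below every mature array, while estrus 3 lay just above diestrus 1. The group means were 7.95 ± 0.17, 8.41 ± 0.10 and 8.60 ± 0.12 (SD, n = 3 pools each). The difference was 0.66 ± 0.10 (SE) in diestrus against immature (95% interval 0.44 to 0.88, 1.58-fold, limma adjusted p = 0.0213). It was 0.47 ± 0.10 in estrus against immature (limma adjusted p = 0.188) and 0.19 ± 0.10 in diestrus against estrus (limma adjusted p = 0.616; 0.13 without diestrus 3 and 0.098 without the 3 arrays with high ovarian or muscle markers). Both mature stages together stood 0.56 ± 0.08 above immature oviduct (1.48-fold, limma adjusted p = 0.0269). The probe set stayed below the array median on all 9 arrays. In RNA of whole tissue, more cells of a type and more RNA per cell cannot be told apart, here and for every other gene.

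Ccl3, macrophage inflammatory protein 1-alpha, binds Ccr1 and draws monocytes, macrophages and T cells. It read 7.77, 7.63 and 7.68 on the immature arrays, 7.77, 7.68 and 7.75 in estrus and 8.08, 8.11 and 7.99 in diestrus. The 3 diestrus arrays lay above the other 6, and the immature and estrus arrays overlapped. All 9 values lay below the array median, 1 of them below the lower quartile. Diestrus exceeded immature oviduct by 0.36 ± 0.06 (95% interval 0.23 to 0.50, 1.29-fold, limma adjusted p = 0.0302). Diestrus against estrus was 0.33 ± 0.06 (95% interval 0.19 to 0.46, limma adjusted p = 0.0779), past the threshold neither there nor in estrus against immature (0.04 ± 0.06, limma adjusted p = 0.915).

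Cxcl15, also called lungkine, is a CXC ligand of mucosal epithelium that attracts neutrophils. Its values were 6.67, 7.20 and 6.96 in immature oviduct, 7.11, 6.85 and 7.01 in estrus and 7.97, 7.71 and 7.58 in diestrus. The diestrus arrays again lay above all others, with no overlap, and the immature and estrus values intermingled. The difference of diestrus was 0.81 ± 0.14 against immature (95% interval 0.49 to 1.12, 1.75-fold, limma adjusted p = 0.0356) and 0.76 ± 0.14 against estrus (95% interval 0.45 to 1.07, limma adjusted p = 0.0779). Estrus against immature was 0.05 ± 0.14 (limma adjusted p = 0.956). Its intensity was below the lower quartile of the array on 7 of 9 arrays and below the median on all 9.

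**Figure D1:**
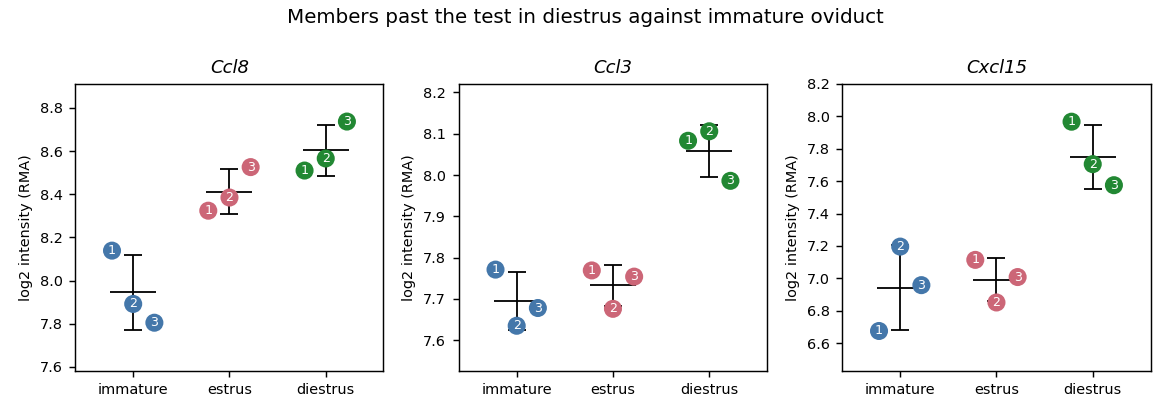
Log2 RMA intensity of Ccl8, Ccl3 and Cxcl15 on each of the 9 arrays, by group, with numbered points for arrays, a long bar for the group mean and whiskers of 1 SD. All 3 diestrus arrays stand above the immature arrays in each panel, and for Ccl8 the estrus arrays (8.32 to 8.53) lie above the immature ones too.

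All 3 calls in diestrus against immature were close to the threshold and ended when certain single arrays were left out. With each array left out, the differences stayed between 0.59 and 0.76 for Ccl8, 0.33 and 0.40 for Ccl3, and 0.67 and 0.93 for Cxcl15. The Ccl8 call in diestrus ended, with adjusted p between 0.0508 and 0.096, without immature 2, immature 3, diestrus 1 or diestrus 2. The Ccl3 call ended without any immature array, estrus 3, diestrus 1 or diestrus 2 (0.0540 to 0.126), and the Cxcl15 call without any of these or estrus 1 (0.0553 to 0.119). Without immature 2, diestrus 2 and diestrus 3 together, the differences were 0.54, 0.36 and 1.15 in the same order, with limma adjusted p of 0.453, 0.427 and 0.216. After cyclic loess the Ccl3 call ended (0.0522), and with only the arrays of both groups in the fit all 3 calls ended (0.0734, 0.0761 and 0.101 for Ccl8, Ccl3 and Cxcl15). The call of Ccl8 in both mature stages together ended without immature 2, immature 3, estrus 2, estrus 3, diestrus 1 or diestrus 2 (0.0584 to 0.161), and without the 3 arrays its adjusted p in limma was 0.348. Leaving out the 3 arrays leaves 1 diestrus array, which is assumed to vary like the others.

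The promoter stretches of the 3 genes that rose in diestrus are shown because they were called in the same comparison. Each is the 250 bases before the start site in RefSeq (GRCm38.p6), written 5′ to 3′ on the gene's strand, with capitals marking a match to 1 of the 7 motifs searched.
Ccl8, chr11:82114935-82115184, plus strand: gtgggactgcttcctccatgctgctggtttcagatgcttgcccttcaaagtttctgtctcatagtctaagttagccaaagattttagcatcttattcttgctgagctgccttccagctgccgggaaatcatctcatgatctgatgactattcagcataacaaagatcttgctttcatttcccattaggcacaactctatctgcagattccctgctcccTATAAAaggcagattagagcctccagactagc
Ccl3, chr11:83649379-83649628, minus strand: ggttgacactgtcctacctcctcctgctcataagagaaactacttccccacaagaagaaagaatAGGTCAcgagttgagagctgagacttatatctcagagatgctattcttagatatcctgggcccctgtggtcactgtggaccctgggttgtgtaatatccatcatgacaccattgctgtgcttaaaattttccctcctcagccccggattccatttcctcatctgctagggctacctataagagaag
Cxcl15, chr5:90794284-90794533, plus strand: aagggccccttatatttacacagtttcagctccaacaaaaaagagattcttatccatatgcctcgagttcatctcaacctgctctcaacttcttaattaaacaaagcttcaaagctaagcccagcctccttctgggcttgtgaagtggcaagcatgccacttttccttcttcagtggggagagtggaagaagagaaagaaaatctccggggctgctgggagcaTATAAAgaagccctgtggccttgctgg
Ccl8 and Cxcl15 hold TATAAA, the letters of a TATA box, whose first base lies at -32 and -27, counted back from the start site. Ccl3 holds AGGTCA, the letters of an estrogen response element half-site, with its first base at -186. RefSeq gave 39 promoters for 37 of the 51 genes, out of 32851 promoters of 300 bases, 250 before and 50 after the start. TATAAA on the gene's strand was in 10 of the 39 against 8.32% of all promoters. AGGTCA, on either strand, was in 11 of 39 against 16.3%. The NF-kB pattern, GGG and CC parted by 5 free bases, was in 22 of 39 against 50.8%. TGANTCA (AP-1) was in 6 against 7.81%, and the interferon-stimulated response element, GAAA and GAAA parted by 2 free bases, in 3 against 3.44%. ACANNNTGT (progesterone response element core) was in 2 against 6.85% and TTGCNNAA (C/EBP) in 1 against 10.8%, these too on both strands. The 3 promoters held no further match, and a match is a description of the letters only.

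Small positive differences were the most frequent. In diestrus against immature oviduct the mean was higher for 40 of 51 genes (78.4%), 26 of 34 ligands and 14 of 17 receptors, where 53.6% of all probe sets were higher. The median difference was 0.07 over the 51 genes and 0.01 over all probe sets. With 1 array left out at a time, the median of the 51 genes ran from 0.037 (without immature 3) to 0.11 (without immature 2). Dim probe sets as a whole also leaned this way: of those with a mean at or below the median, 66.4% were higher, with a median difference of 0.03, against 40.7% of the brighter ones. Among the 37 dim chemokine genes 81.1% were higher, with a median of 0.07, and among the 14 brighter ones 71.4%, with a median of 0.08. In estrus against immature 37 of 51 means were higher (54.9% of all probe sets), and in diestrus against estrus 31 of 51 (46.9%). Of all dim probe sets 68.5% and 47.1% were higher there, against 78.4% and 54.1% of the 37 dim chemokine genes. Of all brighter probe sets 41.3% and 46.6% were higher, against 57.1% and 78.6% of the 14 brighter chemokine genes. The medians over the 51 genes were 0.05 and 0.02 in the same order. With 1 array left out, the former ran from 0.014 (without estrus 1) to 0.099 (without estrus 2). The latter ran from -0.0093 (without estrus 2) to 0.055 (without estrus 1). The differences of receptors in diestrus against immature ran from -0.19 to 0.41, and those of ligands from -0.46 to 0.81.

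A further description is whether the arrays of the groups overlap. In diestrus against immature 9 genes had all diestrus arrays above all immature arrays (17.6% against 7.52% of all probe sets): Ccl3, Ccl4, Ccl6, Ccl8, Ccl17, Ccr2, Ccr3, Cxcl15 and Cxcl16. The 3 genes with all diestrus arrays lower were Ccl7, Ccl12 and Cxcl13 (5.88% against 10.9%). In estrus against immature 5 genes stood apart on the higher side (9.80% against 3.19%), Ccl8, Ccl11, Ccl17, Ccr2 and Cxcl16, and 2 on the lower side (3.92% against 6.62%), Cxcl13 and Cxcl14. In diestrus against estrus 2 genes stood apart on the higher side, Ccl3 and Cxcl15 (3.92% against 4.93%), and 0 on the lower side (6.85% of all probe sets).

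**Figure D2:**
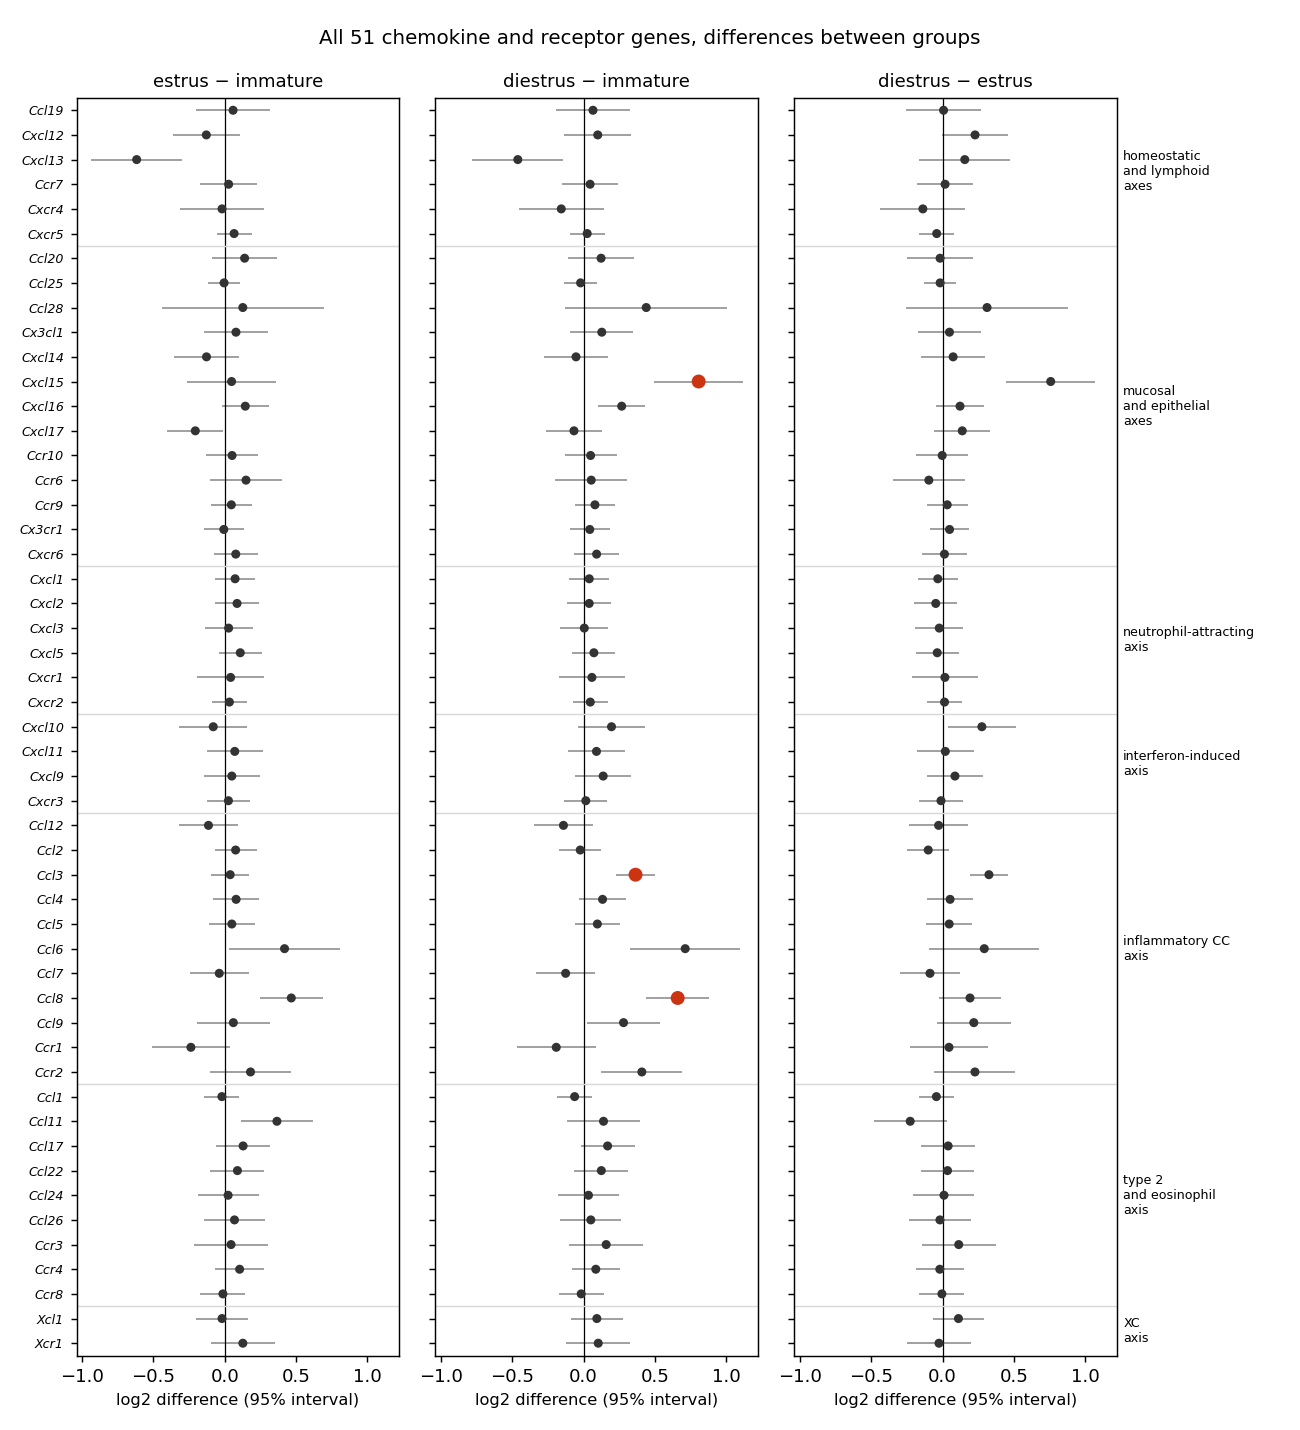
Log2 differences of all 51 genes with 95% intervals, in 3 panels for estrus minus immature, diestrus minus immature and diestrus minus estrus, in the order of 7 role groups, with larger red points for genes past an adjusted p of 0.05. Red points occur in the middle panel alone, at Cxcl15, Ccl3 and Ccl8, and most other differences lie within 0.2 of zero.

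Among the inflammatory CC ligands and their receptors, 11 genes were measured. Ccl3 and Ccl8 rose in diestrus against immature, the other 9 did not pass the test, and the median difference was 0.13. Ccl6, a ligand of macrophages and myeloid cells, had values of 9.71, 9.23 and 9.09 on the immature arrays, 9.61, 10.10 and 9.59 in estrus and 10.14, 10.04 and 9.99 in diestrus. Its diestrus arrays lay above the immature ones, and estrus overlapped with both. The difference of 0.71 ± 0.17 (95% interval 0.33 to 1.10, 1.64-fold) in diestrus against immature did not pass (limma adjusted p = 0.101). It lay between those of Ccl8 and Cxcl15, with immature arrays that differed among themselves by an SD of 0.33. Estrus against immature was 0.42 ± 0.17 (limma adjusted p = 0.735), and diestrus against estrus 0.29 ± 0.17 (limma adjusted p = 0.704). Without estrus 2 these became 0.25 and 0.46.

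Ccl9, a relative of Ccl6 that binds Ccr1, had values of 8.53, 8.30 and 8.11 in immature oviduct, 8.24, 8.50 and 8.38 in estrus and 8.54, 8.48 and 8.75 in diestrus. The groups overlapped, through the high immature 1, and the difference of 0.28 ± 0.11 in diestrus did not pass (limma adjusted p = 0.332; 0.18 without immature 3). Ccl2, the main monocyte attractant, lay between 8.67 and 8.89 on all arrays with overlapping groups. Ccl5, which draws T cells and monocytes, lay between 8.88 and 9.21, and Ccl4, a relative of Ccl3, between 7.94 and 8.18. Ccl7 and Ccl12, further monocyte ligands, stayed between 8.08 and 8.46 and between 7.35 and 7.77. None of these 5 ligands passed the test in any of the 4 comparisons.

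Ccr2, the receptor of Ccl2, Ccl7 and Ccl12 on monocytes, had values of 7.94, 7.96 and 7.74 on the immature arrays, 8.05, 8.02 and 8.11 in estrus and 8.38, 7.96 and 8.52 in diestrus. Both mature groups lay above the immature arrays, diestrus 2 by a margin too small to show at 2 decimals, and diestrus varied most (SD 0.29). The difference of 0.41 ± 0.13 in diestrus was the highest of the 17 receptors and did not pass (limma adjusted p = 0.19). Ccr1, a receptor of Ccl3 and Ccl9, was below the lower quartile on every array, between 5.90 and 6.60.

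Several of these ligand genes lie side by side on chromosome 11. In RefSeq order, the run Ccl2, Ccl7, Ccl11, Ccl12, Ccl8 and Ccl1 gave differences in diestrus against immature between -0.14 and 0.14 except for Ccl8. The run Ccl5, Ccl9, Ccl6, Ccl3 and Ccl4 gave 5 means that were all higher, from 0.10 to 0.71, with Ccl3 alone past the test. On chromosome 5, Cxcl15 stands beside Cxcl5, Cxcl3, Cxcl1 and Cxcl2, whose differences lay between 0.00 and 0.07. Neighbours in such runs are related copies, and how far their probe sets share sequence was not tested.

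The neutrophil ligands Cxcl1, Cxcl2, Cxcl3 and Cxcl5 and the receptors Cxcr1 and Cxcr2 showed small differences. None of the 6 passed the limma test in any comparison, nor an unadjusted p of 0.05 (6.52% to 13.4% of all probe sets in the pairwise comparisons). Differences against immature oviduct ran from 0.03 to 0.11 in estrus and from 0.00 to 0.07 in diestrus. All 6 lay below the array median on all 9 arrays. Cxcl1 stayed between 8.22 and 8.44 and Cxcr2, at 5.69 to 5.86, below every array's lower quartile. Transcripts of neutrophils themselves, such as S100a8, averaged 7.75 to 7.84 over a list of 9 genes on immature arrays, 7.77 to 8.11 in estrus and 7.84 to 8.14 in diestrus. Of these 9, 0 were called by limma in diestrus against immature, with 2 at an unadjusted p under 0.05 (13.4% of all probe sets). Below the array median on all arrays lay 8 of the 9.

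The homeostatic ligands and receptors that organise lymphoid tissue held 6 measured genes with 0 calls by limma. At an unadjusted p under 0.05 stood 1 of the 6, Cxcl13, in each mature stage against immature oviduct. Of all probe sets, 6.52% did so in estrus and 13.4% in diestrus. Cxcl13, the ligand that places B cells through Cxcr5, gave the largest negative differences of all 51 genes. Its values were 9.51, 9.07 and 9.08 on the immature arrays, 8.40, 8.86 and 8.55 in estrus and 8.81, 8.61 and 8.85 in diestrus. Every immature array lay above every mature array. The difference was -0.62 ± 0.14 in estrus (95% interval -0.94 to -0.30, limma adjusted p = 0.249) and -0.46 ± 0.14 in diestrus (limma adjusted p = 0.188), neither past the threshold. Against both mature stages together it was -0.54 ± 0.12 (limma adjusted p = 0.13). Its receptor Cxcr5 stayed between 6.87 and 7.07, below the lower quartile.

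Cxcl12, the stromal ligand that retains cells bearing Cxcr4, read 9.09, 9.08 and 9.21 on the immature arrays, 8.95, 8.95 and 9.09 in estrus and 9.09, 9.09 and 9.49 in diestrus. One array, diestrus 3, was high, and it was also the array with the high smooth muscle markers, whose part in this value was not tested. Its differences were -0.13 ± 0.10 in estrus against immature (limma adjusted p = 0.858) and 0.23 ± 0.10 in diestrus against estrus (limma adjusted p = 0.555). Without diestrus 3 the latter was 0.096. Cxcr4 was lowest on the same array, with 10.17, 9.90 and 10.16 in immature oviduct, 10.02, 9.97 and 10.19 in estrus and 10.10, 10.06 and 9.60 in diestrus. The groups overlapped, and diestrus against immature was -0.16 ± 0.13 (limma adjusted p = 0.676), which became 0.0017 without diestrus 3. Against estrus, the -0.14 for Cxcr4 became 0.02 without it.

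Ccl19, which guides dendritic cells and naive T cells through Ccr7, lay between 10.30 and 10.76 and Ccr7 between 9.02 and 9.35. Both showed overlapping groups and no call. Further Ccl19 probe sets differed by 0.057 to 0.21 in diestrus against immature and were not called either. Ccl21, the other ligand of Ccr7, is measured by a probe set whose annotation lists several near-identical copies, Ccl21a, Ccl21b, Ccl21c and Ccl21d among them, so it falls outside the rule. That probe set read 10.93, 10.80 and 10.86 on the immature arrays, 11.01, 11.14 and 11.08 in estrus and 11.09, 11.27 and 11.49 in diestrus. Its arrays did not overlap between immature and mature oviduct. The difference of 0.42 ± 0.09 in diestrus against immature missed the threshold (limma adjusted p = 0.0773), as did 0.21 ± 0.09 in estrus (limma adjusted p = 0.766). Of 4 markers of lymphatic endothelium, where Ccl21 is made, limma called 0 in diestrus against immature (1.000% of all probe sets). At an unadjusted p under 0.05 stood 0 of them (13.4% of all probe sets), with differences of -0.22 to 0.10.

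**Figure D3:**
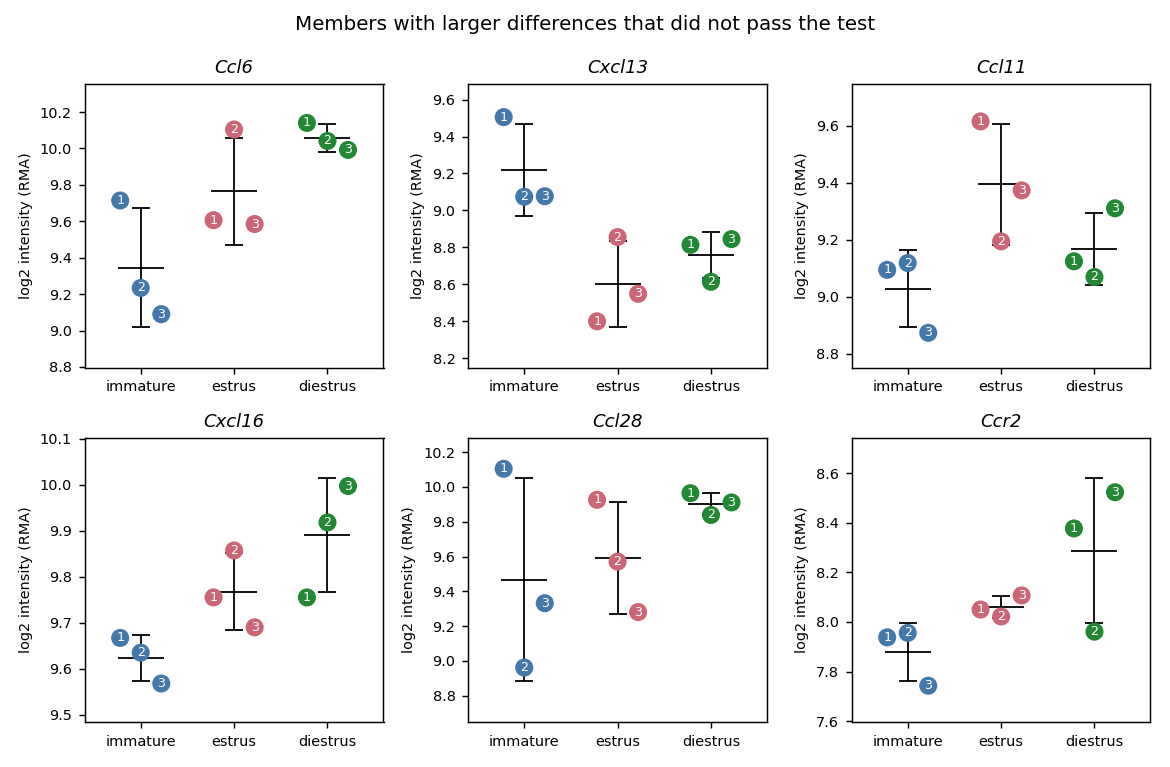
Log2 RMA intensity of Ccl6, Cxcl13, Ccl11, Cxcl16, Ccl28 and Ccr2 on each array by group, with numbered points, group means as long bars and whiskers of 1 SD. None of these 6 genes passed the test in a comparison, and single arrays such as immature 1 for Ccl6 (9.71) and Ccl28 (10.10) stand well away from the others of their group.

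The mucosal and epithelial group held 13 genes, of which Cxcl15 rose in diestrus and 12 were not called. Ccl27a and Ccl27b of this group share probe sets with further symbols and fall outside the rule. The brighter probe set, with a mean of 10.14, differed by -0.13 ± 0.06 in estrus and -0.15 ± 0.06 in diestrus against immature. The dimmer one, with a mean of 5.54, differed by 0.10 and 0.06. Neither was called by limma. Cxcl16, an epithelial and macrophage ligand that exists both bound to the membrane and shed, read 9.67, 9.63 and 9.57 on the immature arrays, 9.76, 9.86 and 9.69 in estrus and 9.76, 9.92 and 9.997 in diestrus. All immature arrays lay below all mature ones, by as little as the gap between 9.67 and 9.69. The differences of 0.14 ± 0.07 in estrus (limma adjusted p = 0.814) and 0.27 ± 0.07 in diestrus (limma adjusted p = 0.147) did not pass. Without immature 2, diestrus 2 and diestrus 3 the latter was 0.14. Its receptor Cxcr6, on T cells and other lymphocytes, stayed between 7.20 and 7.46 and below the lower quartile.

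Ccl28, which draws plasma cells that make IgA to mucosal surfaces through Ccr10, was the most variable of the 51 genes among immature pools (SD 0.58). It read 10.10, 8.96 and 9.33 there, 9.93, 9.57 and 9.28 in estrus and 9.96, 9.84 and 9.91 in diestrus. The groups overlapped through immature 1, the highest of all 9 arrays, whereas the diestrus pools were close together. The difference of 0.44 ± 0.25 in diestrus against immature did not pass (95% interval -0.13 to 1.01, limma adjusted p = 0.512). It was 0.76 without immature 1, 0.19 without immature 2 and 0.25 without immature 2, diestrus 2 and diestrus 3. Ccr10 lay between 8.56 and 8.87 with overlapping groups. Jchain, the joining chain of secreted antibodies and a product of those plasma cells, read 7.30, 6.92 and 6.79 on the immature arrays, 8.84, 9.51 and 8.81 in estrus and 9.22, 8.90 and 9.36 in diestrus. It rose by 2.05 ± 0.20 in estrus (limma adjusted p = 0.0182) and 2.16 ± 0.20 in diestrus (limma adjusted p = 0.00301). The estrus call of Jchain ended without immature 2 or immature 3 (0.093 and 0.110), and both calls ended without immature 2, diestrus 2 and diestrus 3 together (0.190 and 0.216). The other 5 markers of B and plasma cells did not pass: over all 6, the median difference was 0.06 in diestrus against immature, with 3 means higher and 3 lower. In estrus against immature the median over all 6 was 0.08, with 5 means higher and 1 lower. There 2 of the 6, Jchain included, had an unadjusted p under 0.05 (6.52% of all probe sets). On the same arrays neither Ccl28 nor Ccr10 was called.

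Cxcl17, a mucosal ligand of macrophages and dendritic cells, read 9.79, 9.76 and 9.97 on the immature arrays, 9.76, 9.65 and 9.49 in estrus and 9.79, 9.66 and 9.86 in diestrus. The groups overlapped, with estrus lowest on average, and estrus against immature was -0.21 ± 0.09 (limma adjusted p = 0.756; -0.13 without estrus 3). Cxcl14, an epithelial ligand of monocytes and dendritic cells, read 9.80, 9.79 and 9.70 in immature oviduct, 9.54, 9.69 and 9.68 in estrus and 9.50, 9.68 and 9.94 in diestrus. Its estrus arrays lay below the immature ones, while the diestrus arrays spanned a wider range than either (SD 0.22). Estrus against immature was -0.13 ± 0.10 (limma adjusted p = 0.856; -0.079 without estrus 1).

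Cx3cl1, the membrane-bound ligand fractalkine, lay between 9.91 and 10.31, and its receptor Cx3cr1, a marker of monocytes and macrophages, between 9.07 and 9.28. Ccl20, which draws cells bearing Ccr6 to epithelium, lay between 8.31 and 8.74 and Ccr6 between 7.19 and 7.78. Ccl25 is a ligand best known from gut and thymus. The probe set that represents it was the steadiest among the brighter genes, from 9.19 to 9.30 on the 9 arrays. Its difference between diestrus and estrus was -0.02. A second Ccl25 probe set, with a mean of 8.78, was 0.12 lower in each mature stage than in immature oviduct, without a call. The receptor Ccr9 stayed below the lower quartile, at 7.30 to 7.54. None of these 6 genes was called by limma, and their groups overlapped in each pairwise comparison.

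The ligands and receptors of type 2 responses, which recruit eosinophils and helper T cells, held 9 genes with 0 calls by limma. At an unadjusted p under 0.05 stood 1 of the 9, Ccl11, in estrus against immature (6.52% of all probe sets) and in both mature stages together. Ccl11, eotaxin, was highest in estrus: 9.10, 9.12 and 8.87 on the immature arrays, 9.62, 9.20 and 9.37 in estrus and 9.12, 9.07 and 9.31 in diestrus. Its estrus arrays lay above the immature ones, and diestrus overlapped with both. Estrus against immature was 0.37 ± 0.11 (limma adjusted p = 0.526), diestrus against immature 0.14 ± 0.11 (limma adjusted p = 0.661) and diestrus against estrus -0.23 ± 0.11 (limma adjusted p = 0.611). The second was 0.062 without immature 3 and 0.068 without diestrus 3, and the last -0.12 without estrus 1. Its receptor Ccr3 lay between 7.30 and 7.85. Of 8 eosinophil and mast cell markers 0 were called by limma and 0 had an unadjusted p under 0.05 in any comparison. Of all probe sets 6.52% to 13.4% had such an unadjusted p in the pairwise comparisons. Below the array median on all arrays lay 7 of the 8 markers. Ccl17, a ligand of Ccr4 on helper T cells, had immature 1 at 8.30 and all other arrays between 8.59 and 8.77, so that its separation between the groups rests on small gaps. The other ligands of the group, Ccl1, Ccl22, Ccl24 and Ccl26, and the receptors Ccr4 and Ccr8 had differences between -0.06 and 0.12 in diestrus against immature.

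Of the interferon-induced ligands, Cxcl10 read 8.58, 8.70 and 8.45 on the immature arrays, 8.64, 8.47 and 8.37 in estrus and 8.56, 8.88 and 8.87 in diestrus. Diestrus 2 and diestrus 3 were high and diestrus 1 lay among the other arrays. Diestrus against estrus was 0.28 ± 0.11 (limma adjusted p = 0.43), and 0.065 without immature 2, diestrus 2 and diestrus 3. Cxcl9 lay between 8.44 and 8.83, Cxcl11 between 7.37 and 7.69, and their shared receptor Cxcr3, on activated T cells, between 8.55 and 8.81. The ligand Xcl1, made by T and NK cells, lay between 7.67 and 8.03 and its receptor Xcr1, on cross-presenting dendritic cells, between 8.19 and 8.59. No gene of these groups was called.

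**Figure D4:**
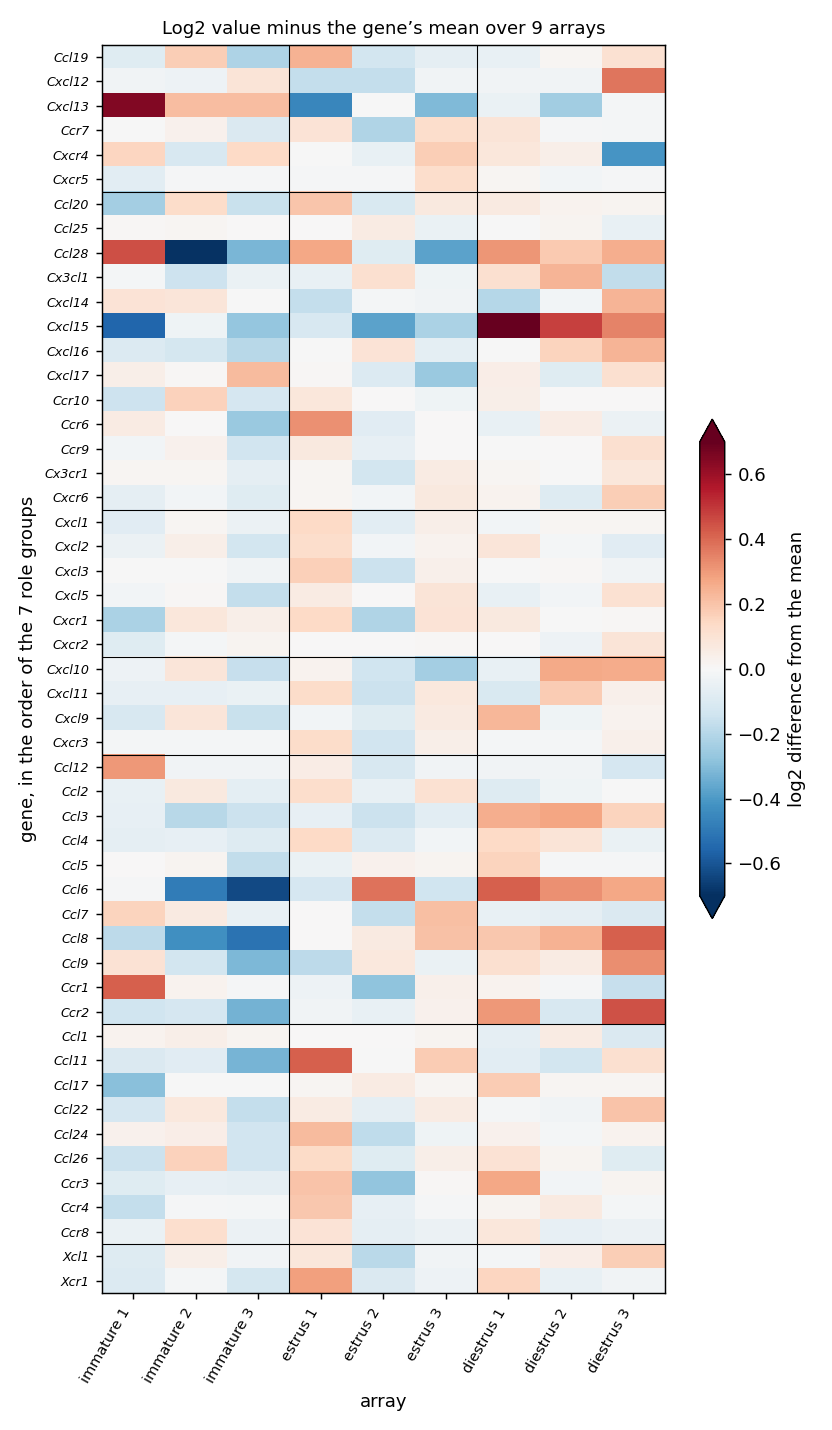
Log2 value of each of the 51 genes minus its mean over 9 arrays, by array (columns) and gene (rows, in the order of 7 role groups), red above and blue below the mean with the colour scale ending at 0.7. Cxcl13 is red on the immature arrays, Ccl8 and Ccl6 are blue on immature 2 and immature 3, and Cxcl15 and Ccl3 are red on the diestrus arrays, while many dim genes are paler and follow single arrays such as estrus 1 and estrus 2.

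Part of the variation belonged to single arrays. Within the estrus group, estrus 2 was the lowest array for 35 of the 51 genes (68.6%, against 46.1% of all probe sets) and estrus 1 the highest for 28 (54.9% against 43.0%). Within the immature group, immature 3 was lowest for 28 genes (54.9% against 41.7%) and immature 2 highest for 30 (58.8% against 42.0%). The genes below the array median took part in this pattern, as Ccr3, Cxcr1 and Ccl24 show with their low values on estrus 2. The typical precision followed from such spread: the median half-width of the 95% interval over the 51 genes was 0.198 in a pairwise comparison, with 3 pools a group.

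The genes through which chemokine receptors act and are controlled were described from lists of their own. Of 20 measured genes of receptor signalling, 1 rose and 1 fell in diestrus against immature (0.294% and 0.705% of all probe sets). Pik3cg, the catalytic subunit of the lipid kinase that G protein subunits switch on, read 9.36, 9.27 and 9.18 on the immature arrays, 9.21, 9.15 and 9.36 in estrus and 9.79, 9.77 and 9.94 in diestrus. All diestrus arrays lay above the other 6. It rose by 0.56 ± 0.08 against immature (1.48-fold, limma adjusted p = 0.0163) and by 0.59 ± 0.08 against estrus (1.51-fold, limma adjusted p = 0.0229). The former call ended without immature 2, immature 3, diestrus 1 or diestrus 2 (0.0508 to 0.078), the latter without any 1 of immature 2, immature 3, the estrus arrays, diestrus 1 or diestrus 2 (0.0530 to 0.129). Without immature 2, diestrus 2 and diestrus 3 together the adjusted p in limma was 0.403 and 0.691, and with only the arrays of both groups the call against estrus ended (0.109).

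Rgs19, which shuts off inhibitory G proteins, read 10.20, 10.08 and 10.16 on the immature arrays, 10.06, 10.15 and 10.18 in estrus and 9.77, 9.71 and 9.89 in diestrus. All diestrus arrays lay below the other 6, and it fell by 0.36 ± 0.07 against immature (limma adjusted p = 0.0426). That call ended when any 1 array other than diestrus 3 was left out (0.0545 to 0.160), after cyclic loess (0.0660), with only the arrays of both groups (0.0904), and without immature 2, diestrus 2 and diestrus 3 (0.349). Rgs2, another regulator of G protein signalling, was 0.92 ± 0.17 higher in diestrus than in estrus without passing (limma adjusted p = 0.0814), with its highest value, 11.47, on diestrus 3. The other genes of the list had no call.

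The list of inducers of inflammatory chemokines and their regulators held 17 measured genes. In diestrus against immature 1 of them fell and none rose (0.705% and 0.294% of all probe sets). The 1 that fell was Nfkbia, which inhibits NF-kB and is not an inducer itself. It read 11.38, 11.46 and 11.49 on the immature arrays, 11.43, 11.37 and 11.46 in estrus and 11.14, 11.11 and 11.19 in diestrus. The diestrus arrays lay below the other 6. The fall of 0.29 ± 0.05 against immature (limma adjusted p = 0.0442) was no longer past the threshold without any 1 immature array, estrus 1, estrus 3, diestrus 1 or diestrus 2 (0.0626 to 0.169). It also ended after cyclic loess (0.0958), with an intensity trend and robust prior (0.0546), with only the arrays of both groups (0.0835), and without immature 2, diestrus 2 and diestrus 3 (0.482). Of 12 genes for presentation and cutting of chemokines and 12 atypical receptors and chemokines under other symbols, limma called 0 in diestrus against immature. In each list 2 had an unadjusted p under 0.05 (13.4% of all probe sets). Cklf, a relative of the chemokines, came nearest with -0.33 ± 0.07 in diestrus against immature (limma adjusted p = 0.0708).

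Markers of leukocytes were read on the same arrays. The 10 monocyte and macrophage genes gave 0 calls by limma. In diestrus against immature 5 had an unadjusted p under 0.05 (13.4% of all probe sets). There all 10 genes had a higher mean (53.6% of all probe sets), with a median difference of 0.24. In estrus against immature 3 of these genes had a higher mean and 7 a lower one, with a median difference of -0.075. Of all probe sets 54.9% were higher in that comparison. Their list mean was 9.12 to 9.40 on the immature arrays, 9.17 to 9.23 in estrus and 9.34, 9.43 and 9.75 in diestrus, so immature 1 and diestrus 1 overlapped. Diestrus 3, the highest, was also highest for Ccl8, Ccl9, Ccr2 and Cxcl16, but the lowest of the diestrus arrays for Ccl3, Ccl6 and Cxcl15. Of 6 dendritic cell, 8 T cell and 6 NK cell markers 0 were called by limma in diestrus against immature, with 1, 0 and 0 at an unadjusted p under 0.05, and all 8 T cell and all 6 NK cell markers lay below the array median on every array. Fat cell markers were higher on immature 1 (8.91) and immature 2 (8.67) than on the other 7 arrays (7.97 to 8.29). The part of cell composition in the differences of the chemokine genes was not tested.

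**Figure D5:**
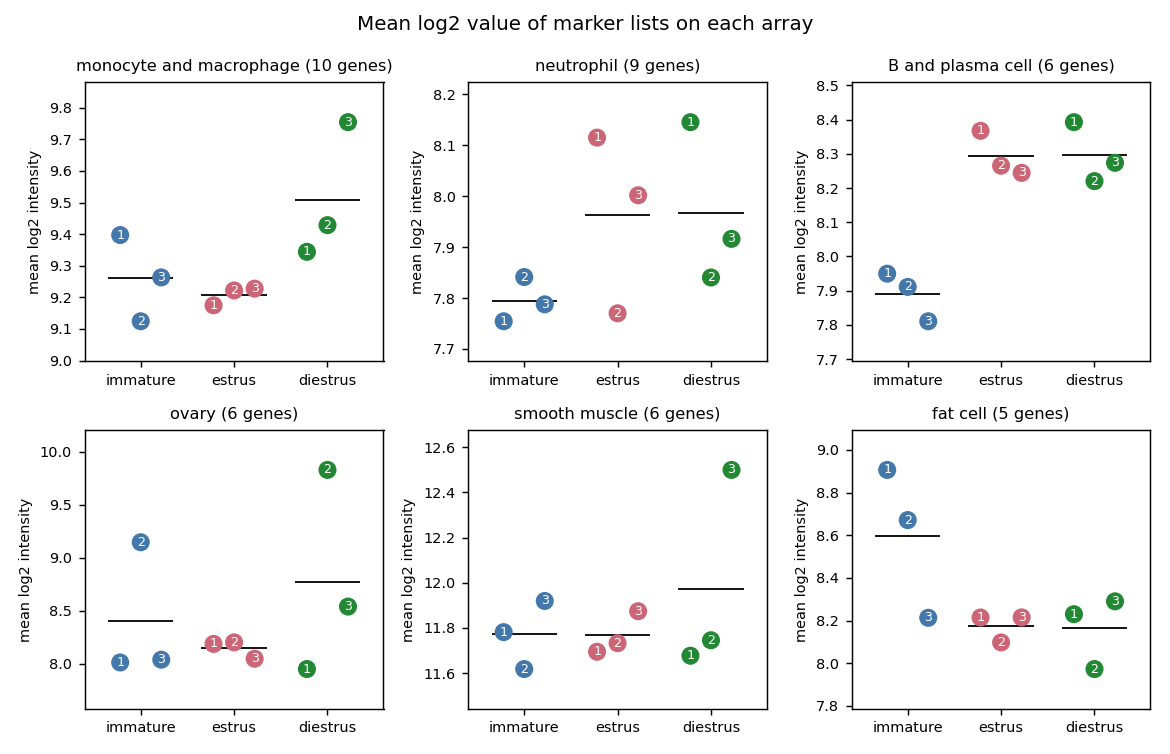
Mean log2 intensity of 6 marker lists on each array by group, with numbered points and a bar for the group mean. The macrophage list is highest on diestrus 3 (9.75), the ovarian list on diestrus 2 (9.83) and the smooth muscle list on diestrus 3 (12.50). The higher B and plasma cell mean on the mature arrays comes mainly from Jchain, 1 of the 6 genes of that list.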

How the data were processed

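RNA of whole oviduct was measured on 9 Affymetrix arrays. The deposited log2 values come from Affymetrix Expression Console with RMA, per the submitters' processing notes; RMA corrects background, normalizes quantiles and summarises probe sets. The sources used here state no software versions, and the base of the logarithm was taken from the range of the values. The number of arrays limits the precision. Of 28214 probe sets, 21640 had 1 symbol in the platform annotation, 1321 several and 5253 none. All 9 arrays entered 1 fit in limma 3.58.1 (R 4.3.3; lmFit and eBayes, 6 residual and 3.60 prior degrees of freedom, two-sided), with Benjamini-Hochberg adjustment over all probe sets and a threshold of 0.05. All probe sets were kept. The code was tested on simulated data. The genes, lists and the naming rule were chosen with earlier results of these data known. The rule named called members, in each comparison the 4 brighter members with the largest rise and the 4 with the largest fall, the 10 with the highest means, and a set of well-known ligands and receptors. Alternatives changed the replicate block, filter, scaling, prior, array weights, probe set choice and arrays included. Tables were made in Python 3.11.15 with pandas 2.3.3, plots with matplotlib 3.10.9.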

Additional observations from a re-analysis of the deposited data

How the results depend on the processing

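With the 3 groups of 3 pools, calls depended on the settings, while the direction of Ccl8, Ccl3 and Cxcl15 in diestrus against immature stayed positive under each setting that gave a value. Calls among the 51 genes in diestrus against immature numbered 3, and 2 after cyclic loess, 5 with array weights, 0 after a filter that kept only probe sets with a mean above the median, which removed Ccl3, Ccl8 and Cxcl15 themselves, 0 with only the arrays of both groups compared, 0 without immature 2, diestrus 2 and diestrus 3 (chosen after seeing the data) and 0 to 3 when each array was left out. For mature against immature they numbered 1, and 3 with array weights, 0 with the filter (Ccl8 removed), 0 without the 3 arrays and 0 to 1 with each array left out. With array weights they were 4 in estrus against immature and 7 in diestrus against estrus, against 0 otherwise. Over all probe sets, calls were 24 in estrus against immature (12 with the filter, 5 after loess, 1023 with weights, 2 without the 3 arrays, 1 to 95 with each array left out). They were 282 in diestrus against immature (1288 with weights, 85 with the groups' own arrays, 3 without the 3 arrays, 41 to 533). They were 45 in diestrus against estrus (130 with the filter, 3331 with weights, 0 without the 3 arrays, 0 with the groups' own arrays, 1 to 105) and 122 in mature against immature (578 with weights, 3 without the 3 arrays, 14 to 300). The labels state no pairing of the replicate numbers. Deviations of same-numbered arrays from their group means correlated at -0.29 to 0.17. These were not set against differently numbered arrays, so a shared batch was not excluded. With the replicate block, calls over all probe sets were 4, 121, 13 and 44 in the order estrus against immature, diestrus against immature, diestrus against estrus and mature against immature, and 0 among the 51 genes in each. With that block Rgs19 and Nfkbia in diestrus against immature (adjusted p 0.0790 and 0.0877), Pik3cg in diestrus against estrus (0.0679) and Jchain in estrus against immature (0.0577) were not past the threshold either. Sign changes were read only for the pairs of gene and comparison that the naming rule picked, and for the called genes. The remaining differences of the 51 genes, many of them near zero, were not read for this. Among the pairs read, differences that changed sign were not called in the comparison concerned. In estrus against immature these were Ccl3 after cyclic loess (-0.0031), Ccl28 with array weights (-0.19), without the 3 arrays (-0.13) or without immature 2 or estrus 1 (-0.13 to 0.45 with each array left out), and Cxcl15 without immature 1 or estrus 1 (-0.086 to 0.17). In diestrus against immature they were Cxcl14 without diestrus 1 (-0.17 to 0.050) and Cxcr4 without diestrus 3 (-0.25 to 0.0017). In diestrus against estrus they were Ccl25 with array weights (0.046) and without estrus 2 or diestrus 3 (-0.043 to 0.0095), and Cxcr4 without the 3 arrays (0.042) or diestrus 3 (-0.23 to 0.021). In mature against immature Cxcr4 turned with array weights (0.022). The cause of these changes was not tested.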
